A study of Mus musculus with 12 samples.

Results

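The 9 genes described here, Fkbp5, Tsc22d3, Zbtb16, Klf9, Klf15, Dusp1, Sgk1, Ddit4 and Errfi1, are classic direct target genes of the glucocorticoid receptor (GR). They were taken by symbol as textbook targets of the receptor, and they are 9 of 22276 gene symbols in the expression tables. RNA was sequenced from the gastrocnemius muscle, the liver and the gonadal white adipose tissue (WAT) of mice given corticosterone (CORT), the main rodent glucocorticoid, or vehicle. All mice were male C57BL/6J, were 8 weeks old at the start, carried floxed alleles of Nr3c1, the gene for GR, and drank water with 1% ethanol for 4 weeks, to which 100 µg/mL CORT was added for the CORT groups. The GRmKO mice also carried Cre driven by the Acta1 promoter, which is active in muscle fibres and not in the other cells of a muscle, whereas the GRf/f mice carried no Cre. Each of the 12 groups (3 tissues, 2 genotypes and 2 treatments) was 1 library of RNA pooled from 3 mice, so no difference below has a replicate check or a p-value, and the spread between mice is unknown.

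GR is held in the cytoplasm by the Hsp90 chaperone machinery, binds corticosterone, enters the nucleus and binds palindromic glucocorticoid response elements (GREs) near its target genes. Several of its targets feed back on stress signalling: Fkbp5 encodes the immunophilin FKBP51, which lowers the hormone affinity of GR, Tsc22d3 encodes the anti-inflammatory protein GILZ, and Dusp1 encodes a phosphatase that switches off MAP kinases. Other targets are transcription factors (Zbtb16, also known as PLZF, and the Krüppel-like factors Klf9 and Klf15), a kinase of ion transport and cell survival (Sgk1), an mTORC1 inhibitor (Ddit4, also known as REDD1) and an inhibitor of the EGF receptor (Errfi1). In skeletal muscle such genes are widely read as markers of glucocorticoid action, and Klf15 and Ddit4 are linked to protein breakdown and lowered protein synthesis.

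Of the 9 genes, 8 had 1 or more promoter windows in RefSeq (GRCm38.p6), each of 250 bases before and 50 after a start site, and Zbtb16 had none. The consensus GRE, AGAACA, then 3 bases of any kind, then TGTTCT, which reads the same on both strands, was found in 1 of the 16 windows, one that belongs to Sgk1. Only 3 of 32851 windows (0.00913%) of 27025 genes held these letters, those of Acnat2, Sgk1 and Gm35041. The Sgk1 copy lies on chromosome 10 at chr10:21993701-21993715, at position −189 from the start site of an upstream Sgk1 transcript and 965 bases before the start of Sgk1-201, the transcript under which the expression tables list the gene. The 250 bases before that upstream start, and the 250 bases before Fkbp5-201, are printed because Sgk1 and Fkbp5 are the genes of the 9 whose response to CORT in muscle differed most between genotypes. Capitals mark each copy of either half-site, AGAACA or TGTTCT, on either strand.
Sgk1, chr10:21993640-21993889, plus strand: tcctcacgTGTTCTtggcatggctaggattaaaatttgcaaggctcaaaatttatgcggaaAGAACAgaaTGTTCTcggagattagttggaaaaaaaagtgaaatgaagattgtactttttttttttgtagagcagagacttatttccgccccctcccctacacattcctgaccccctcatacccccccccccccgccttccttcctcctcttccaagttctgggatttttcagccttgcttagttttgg
Fkbp5, chr17:28486150-28486399, minus strand: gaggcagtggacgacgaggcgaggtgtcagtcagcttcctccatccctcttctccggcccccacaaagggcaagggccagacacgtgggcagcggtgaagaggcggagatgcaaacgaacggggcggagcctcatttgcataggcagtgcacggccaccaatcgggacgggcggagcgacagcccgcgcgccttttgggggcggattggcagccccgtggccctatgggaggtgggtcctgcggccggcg
The Sgk1 stretch holds 3 half-sites, of which the second and the third form the GRE, and the Fkbp5 stretch holds none. At least 3 half-sites stood in 0.31% of all windows, and at least 1 in 19%. Among the windows of the 9 genes, 4 held a half-site, and they belonged to Sgk1 and Tsc22d3. The Sgk1 stretch has 44.8% G and C, and the Fkbp5 stretch 68%. A match of letters is a description and not a binding site, and the missing match in Fkbp5 covers these 250 bases only.

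Library totals ran from 19394572 to 20940660 estimated counts, so levels are given as CPM (counts per 1000000 of the library total). A log2 change is that of CPM plus 0.5, intervals in square brackets are 95% intervals that cover counting error only and are computed without the added 0.5, and a gene is said to have risen or fallen when it changed at least 2-fold. The share of all tested genes past the same fold is given as background beside the counts of the 9 genes in each comparison, and counts of other lists in the same comparison are to be read against the same share. The gastrocnemius tables list 22273 symbols and the others 22252, so tissues may have been length-scaled separately, and levels set side by side across tissues carry that limit. All 9 genes were above 0 in every library and passed the filter in each tissue. Each value is listed under 1 transcript, and whether it also covers the other transcripts of the gene was not settled. Nr3c1 fell in the GRmKO gastrocnemius, to 41.2% of the GRf/f level under vehicle and 39.2% under CORT, and stood at 105% and 110% in liver and at 102% and 81.5% in WAT. The floxed part of Nr3c1 is exon 3, and these counts are not limited to that exon. They are therefore not a measure of the GR protein left in muscle fibres. Defining markers matched the labelled tissues: the summed CPM of 8 myofibre genes was 89000 to 121632 in gastrocnemius and at most 6.10 in liver, that of 9 hepatocyte genes was 95454 to 152994 in liver, and that of 7 adipocyte genes was 24320 to 30243 in WAT. Foreign markers were present in muscle at lower levels. The adipocyte sum went from 238 to 611 CPM with CORT in GRf/f and from 340 to 476 CPM in GRmKO, and the hepatocyte sum was 45.9, 113, 135 and 373 CPM in GRf/f vehicle, GRf/f CORT, GRmKO vehicle and GRmKO CORT. Cyp2e1, which WAT also expresses, made up most of that sum in GRf/f (39.0 and 103 CPM), and without it the sum was 6.90, 9.70, 84.7 and 282 CPM. The 5 macrophage genes summed to 106, 111, 381 and 143 CPM in the same order. Of the 8 hepatocyte genes tested there, 7 were higher in GRmKO than in GRf/f under vehicle and 7 under CORT, where 4.59% and 4.4% of all genes were. Of 6 adipocyte genes, 5 rose with CORT in GRf/f (background 3.26%) and 1 fell, Cfd (53.4 to 22.6 CPM, background 4.72%), and 4 rose in GRmKO (background 1.51%). The 6 B cell and MHC class II genes fell in sum from 179 to 7.95 CPM and from 466 to 40.4 CPM with CORT. Only 3 of the 6 passed the filter in muscle, Cd74, H2-Aa and H2-Ab1, all of MHC class II. The B cell marker Ms4a1 was at or under 3 counts in all 4 muscle libraries, so the sum says nothing about B cells there. The part of these cells in the muscle values was not tested. In bulk tissue, fewer cells of a type and less RNA per cell cannot be told apart.

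**Figure D1:**
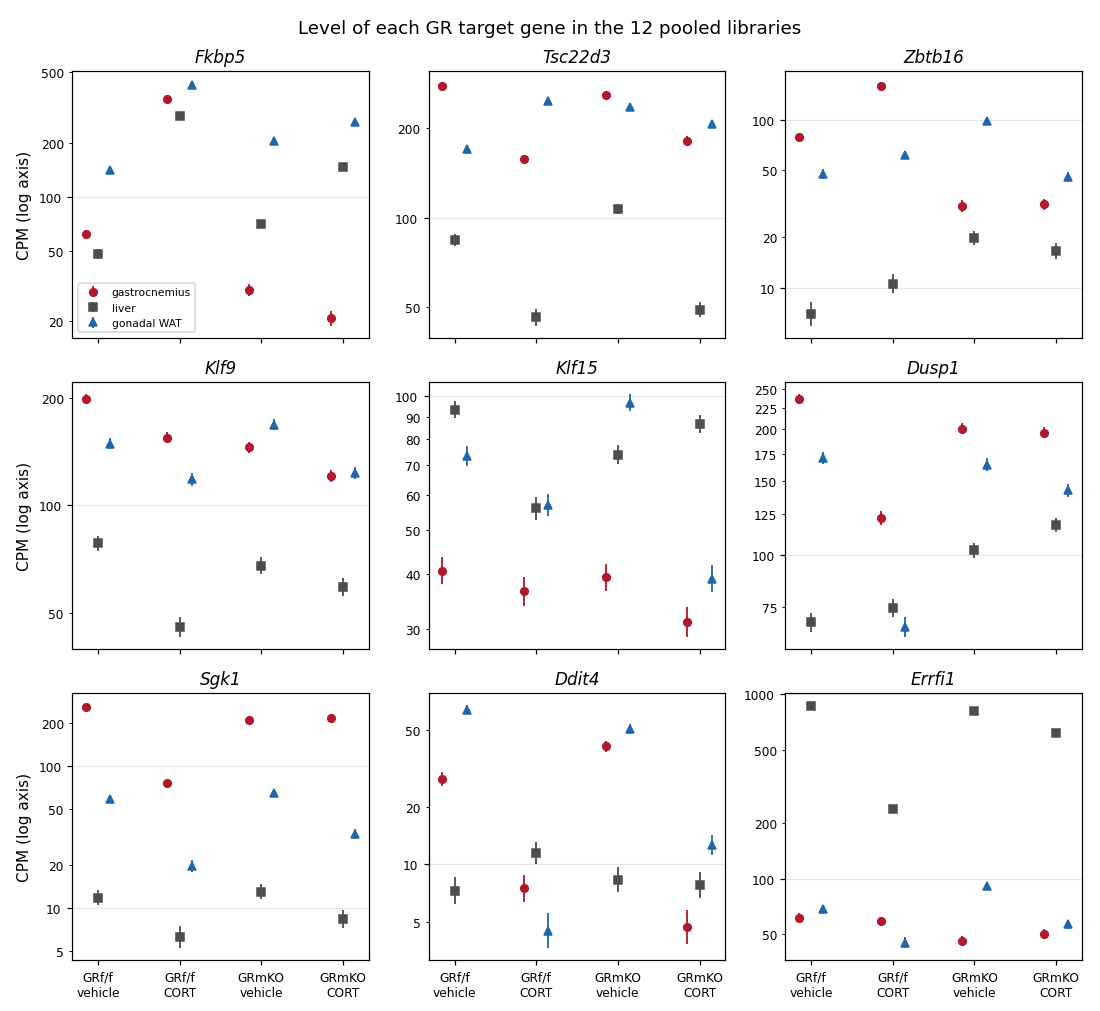
CPM on a log axis (vertical) of the 9 genes in the 12 libraries, by group (horizontal), with 1 point per pooled library and bars for the 95% Wilson interval of counting error; circles are gastrocnemius, squares liver and triangles gonadal WAT. Fkbp5 in gastrocnemius reached 355 CPM in GRf/f with CORT and stayed at 30.0 and 20.8 CPM in GRmKO, whereas Errfi1 was above 239 CPM in every liver library and below 92 CPM in every other library.

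The first comparison asked how these genes responded to CORT in the muscle of GRf/f mice. In gastrocnemius, 2 of the 9 genes rose, Fkbp5 and Zbtb16, where 3.26% of 13543 tested genes rose, and 2 fell, Sgk1 and Ddit4, where 4.72% of all genes fell. The other 5 were within 2-fold and lower with CORT, although the value of Errfi1 changed from −0.07 to 0.02 with TMM scaling. The median log2 change of the 9 genes was −0.36, against −0.08 over all genes. Without muscle GR, none of the 9 rose with CORT (background 1.51%) and 1 fell, Ddit4 (background 5.02%). The median was then −0.26, against −0.10 over all genes.

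Between genotypes in gastrocnemius, Fkbp5 and Zbtb16 were the 2 genes that were at least 2-fold lower in GRmKO, both under vehicle (background 3.18%) and under CORT (background 5.31%). None was at least 2-fold higher in GRmKO under vehicle (background 4.59%), and 1 was under CORT, Sgk1 (background 4.4%).

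In liver, where GR was not deleted, Fkbp5 was the 1 gene that rose with CORT and Errfi1 the 1 that fell in GRf/f, beside a background of 5.9% and 5.72% of 12485 genes. In the GRmKO liver Fkbp5 again rose (background 2.8%), at a log2 change of 1.06 that became 0.99 with TMM scaling, and Tsc22d3 fell (background 2.82%). The livers of the 2 genotypes differed in Zbtb16 under vehicle, which was higher in GRmKO (background 1.26%), and in Errfi1 under CORT, also higher in GRmKO (background 2.44%). No gene of the 9 was at least 2-fold lower in the GRmKO liver under vehicle (background 1.04%) or CORT (background 2.27%). Beside these values, the 5 macrophage genes summed to 127, 42.0, 100 and 63.5 CPM in GRf/f vehicle, GRf/f CORT, GRmKO vehicle and GRmKO CORT. With CORT 4 of the 5 fell in GRf/f (background 5.72%) and 1 in GRmKO (background 2.82%). The 6 B cell and MHC class II genes summed to 111, 5.80, 102 and 16.7 CPM, and the 4 tested fell in both genotypes. The part of these cells in the liver values was not tested.

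In WAT, Fkbp5 rose with CORT in GRf/f (background 5.49% of 14218 genes), and Dusp1, Sgk1 and Ddit4 fell (background 8.07%). In GRmKO no gene of the 9 rose (background 3.47%), and Zbtb16, Klf15 and Ddit4 fell (background 5.63%). The fall of Zbtb16 was −1.09 and became −0.97 with TMM scaling. Zbtb16 was higher in the GRmKO WAT under vehicle (background 1.07%), at 1.04, or 0.99 without the 10 most abundant entries. Dusp1 and Ddit4 were higher under CORT (background 1.43%), and none was at least 2-fold lower under vehicle (background 1.15%) or CORT (background 1.19%). Beside these values, the 5 macrophage genes summed to 688, 1732, 894 and 1668 CPM in GRf/f vehicle, GRf/f CORT, GRmKO vehicle and GRmKO CORT, and 4 of the 5 rose with CORT in GRf/f (background 5.49%) and 1 in GRmKO (background 3.47%). The 6 B cell and MHC class II genes summed to 1289, 150, 1582 and 297 CPM, and all 6 fell with CORT in both genotypes (background 8.07% and 5.63%). The 9 hepatocyte genes summed to 4968 to 5893 CPM in WAT, of which Cyp2e1 made up 4877 to 5824 CPM, and without it the sum was 57.2 to 118 CPM. The 8 myofibre genes summed to 49.8, 120, 203 and 107 CPM in GRf/f vehicle, GRf/f CORT, GRmKO vehicle and GRmKO CORT. Of the 4 tested, 1 was higher in GRmKO under vehicle, Acta1 (37.4 to 199 CPM, background 1.07%), and none was lower. The part of these cells in the WAT values was not tested.

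Over the 6 comparisons of CORT with vehicle, 38 of the 54 values were below 0 and 16 were above 0, where 55.5% of the values of all tested genes were below 0. At least 2-fold rises made up 5 of the 54 and at least 2-fold falls 11, where 3.74% of the values of all genes were rises and 5.38% were falls. Both among the 9 genes and among all genes, falls were thus more frequent than rises. Fkbp5 alone accounted for 4 of the 5 rises, and Zbtb16 in the GRf/f gastrocnemius was the other. In no tissue and genotype were the values of the 9 genes all on 1 side of 0, and they are given gene by gene. In the GRmKO gastrocnemius, however, no value above 0 was beyond counting error.

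**Figure D2:**
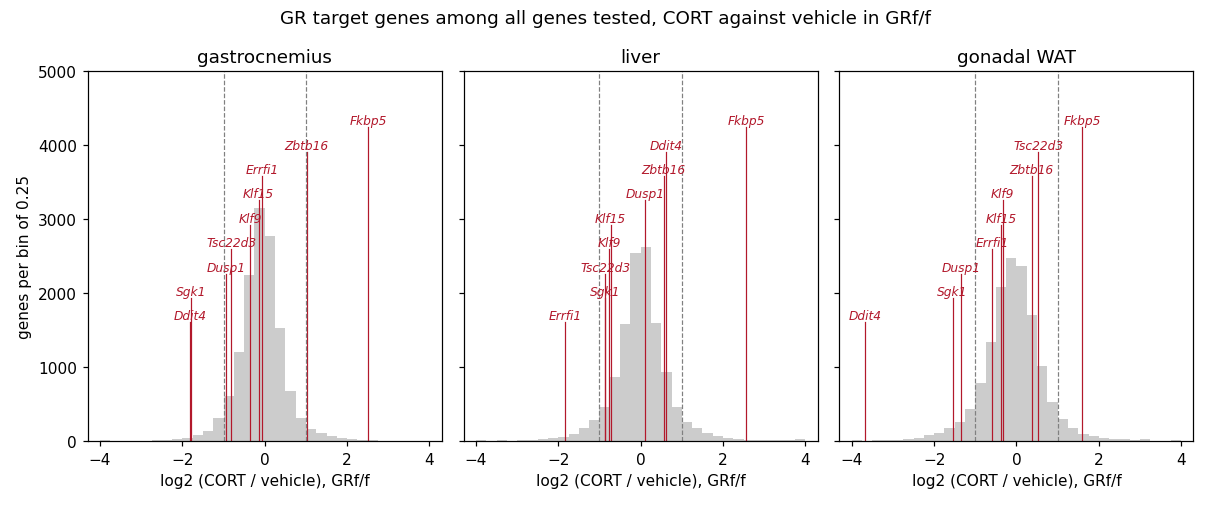
Log2 change with CORT in GRf/f (horizontal) of all tested genes in each tissue, as genes per bin of 0.25 (vertical, grey bars, with values beyond −4 and 4 put in the end bins), with the 9 genes as labelled red lines whose height carries no value, and dashed lines at 2-fold. Fkbp5 is in the right tail in all 3 panels (2.51, 2.57 and 1.60), and Ddit4 is in the left tail in gastrocnemius and WAT (−1.82 and −3.68) but right of centre in liver (0.62).

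Fkbp5 encodes the GR co-chaperone and was the gene of the 9 with the most uniform rise. In gastrocnemius its level was 61.9 CPM in GRf/f vehicle, 355 CPM in GRf/f CORT, 30.0 CPM in GRmKO vehicle and 20.8 CPM in GRmKO CORT. The GRf/f CORT library stood far above the other 3. Fkbp5 rose 5.74-fold with CORT in GRf/f (log2 2.51, [2.43, 2.61]), a change larger in size than that of 99.6% of tested genes, while in GRmKO the log2 change was −0.52 [−0.71, −0.34]. The response was thus lower in GRmKO by 3.05 on the log2 scale without the added 0.5 CPM, with the difference in the interval [−3.25, −2.85]. Under CORT the GRmKO level was 0.0587 times the GRf/f level (log2 −4.06), and under vehicle 0.485 times (log2 −1.03).

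In liver, Fkbp5 was at 47.7 CPM in GRf/f vehicle, 286 CPM in GRf/f CORT, 70.2 CPM in GRmKO vehicle and 147 CPM in GRmKO CORT. In WAT the levels were 141, 427, 206 and 264 CPM in the same order. In both tissues the 2 GRmKO levels lay between the 2 GRf/f levels, so that the CORT response was smaller in mice whose Cre is driven by a muscle-fibre promoter: 6.00-fold in GRf/f liver against 2.09-fold in GRmKO liver, and 3.03-fold against 1.28-fold in WAT. The difference of the log2 changes, GRmKO minus GRf/f, was −1.52 [−1.65, −1.39] in liver and −1.24 [−1.33, −1.16] in WAT. Under vehicle Fkbp5 was 1.47 times as high in the GRmKO liver as in the GRf/f liver and 1.46 times as high in WAT, whereas under CORT it was 0.513 and 0.618 times as high.

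The summed level of heat shock genes was higher with CORT in every tissue and genotype, also in the GRmKO gastrocnemius, where Fkbp5 was not. For the 5 genes it went from 412 to 2250 CPM in the GRf/f gastrocnemius and from 306 to 658 in GRmKO, from 94.0 to 419 and from 151 to 274 in liver, and from 221 to 723 and from 319 to 617 in WAT. Of 8 chaperone and immunophilin genes of the GR complex, 1 rose in the GRf/f gastrocnemius, Hsp90aa1 (53.7 to 256 CPM, log2 2.24), 2 rose in the GRf/f liver, Hsp90aa1 and Hspa8, and 1 in the GRf/f WAT, Hspa8. The background of rises was 3.26% in gastrocnemius, 5.9% in liver and 5.49% in WAT. None of the 8 rose or fell with CORT in any GRmKO tissue. The part of these genes in the Fkbp5 values was not tested.

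Zbtb16, a transcriptional repressor with BTB and zinc finger domains, followed Fkbp5 in muscle at a smaller size. In gastrocnemius it was at 78.6 CPM in GRf/f vehicle, 159 CPM in GRf/f CORT, 30.8 CPM in GRmKO vehicle and 31.4 CPM in GRmKO CORT. Both GRmKO libraries were below both GRf/f libraries. The change with CORT was 2.03-fold in GRf/f (log2 1.02, [0.93, 1.11]) and 1.02-fold in GRmKO (log2 0.03, [−0.13, 0.19]), and GRmKO was at 0.392 times the GRf/f level under vehicle and 0.197 times under CORT.

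Outside muscle the order of the genotypes was the opposite under vehicle. Zbtb16 was at 7.04, 10.6, 19.9 and 16.6 CPM in the liver of GRf/f vehicle, GRf/f CORT, GRmKO vehicle and GRmKO CORT, and at 47.5, 61.5, 98.0 and 45.6 CPM in WAT. Under vehicle it was 2.82 times as high in the GRmKO liver as in the GRf/f liver (log2 1.43, [1.23, 1.78]), a difference larger than that of 99.3% of genes, and 2.06 times as high in WAT (log2 1.04, [0.93, 1.16]). With CORT it fell in the GRmKO WAT (log2 −1.09), while in the GRf/f WAT the log2 change was 0.37.

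Tsc22d3, the gene of GILZ, listed as Tsc22d3-201 (1 of 3 protein-coding transcripts), did not rise past 2-fold with CORT in any tissue. Its levels in gastrocnemius were 276 CPM in GRf/f vehicle, 157 CPM in GRf/f CORT, 258 CPM in GRmKO vehicle and 182 CPM in GRmKO CORT, and both CORT libraries were below both vehicle libraries. In liver the levels were 84.1, 46.2, 107 and 49.1 CPM in the same order, again with both CORT libraries lower. CORT changed it by −0.81 and −0.51 on the log2 scale in the GRf/f and GRmKO gastrocnemius, and by −0.86 and −1.12 in the liver, of which only the last passed 2-fold. In WAT it was at 170, 246, 235 and 207 CPM, with a log2 change of 0.53 [0.47, 0.60] in GRf/f and −0.19 [−0.25, −0.13] in GRmKO. Tsc22d3 thus differed little by muscle genotype in gastrocnemius, at 0.934 times the GRf/f level under vehicle and 1.16 times under CORT.

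Klf9 and Klf15 encode Krüppel-like factors of the glucocorticoid programme. Klf9 in gastrocnemius was at 198, 154, 145 and 121 CPM in GRf/f vehicle, GRf/f CORT, GRmKO vehicle and GRmKO CORT. In liver it was at 78.2, 45.7, 67.8 and 59.1 CPM and in WAT at 149, 118, 168 and 123 CPM. In each tissue and genotype the CORT library was the lower one, with log2 changes from −0.20 in the GRmKO liver to −0.77 in the GRf/f liver, none of which passed 2-fold. In gastrocnemius Klf9 stood at 0.732 times the GRf/f level in GRmKO under vehicle and at 0.782 times under CORT.

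Klf15 was at 40.6, 36.5, 39.2 and 31.2 CPM in gastrocnemius in the same order. Its log2 change with CORT there was −0.15 [−0.30, −0.01] in GRf/f and −0.32 [−0.48, −0.18] in GRmKO. In WAT it was at 73.6, 56.9, 96.7 and 38.9 CPM, and it fell in GRmKO (log2 −1.30, [−1.43, −1.19]) but not past 2-fold in GRf/f (log2 −0.37). In liver, where the table lists another transcript, Klf15-202, the levels were 93.4, 56.0, 73.9 and 86.4 CPM, with a log2 change of −0.73 in GRf/f and 0.22 in GRmKO. The liver and WAT values therefore differ by genotype in opposite ways, with a response that was higher in GRmKO by 0.96 [0.82, 1.11] in liver and a difference of −0.94 [−1.11, −0.78] in WAT.

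Sgk1, whose upstream promoter holds the consensus GRE, fell with CORT in the gastrocnemius and WAT of GRf/f mice. In gastrocnemius it was at 260 CPM in GRf/f vehicle, 75.2 CPM in GRf/f CORT, 211 CPM in GRmKO vehicle and 217 CPM in GRmKO CORT. The GRf/f CORT library was the low one, and the other 3 lay between 211 and 260 CPM. The log2 change with CORT was −1.78 [−1.87, −1.70] in GRf/f, larger in size than that of 98.5% of genes, and 0.04 [−0.02, 0.10] in GRmKO, so the responses differed by 1.83 [1.72, 1.93]. Under CORT GRmKO was 2.89 times as high as GRf/f.

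In WAT, Sgk1 was at 58.5, 19.6, 64.3 and 33.1 CPM, with both CORT libraries below both vehicle libraries and log2 changes of −1.55 in GRf/f and −0.95 in GRmKO. In liver it was lower than in the other tissues, at 11.8, 6.23, 13.0 and 8.33 CPM, with log2 changes of −0.87 [−1.25, −0.61] and −0.61 [−0.93, −0.36]. The difference of the 2 liver responses, 0.28 [−0.14, 0.69], was within counting error.

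Dusp1, like Sgk1, was lowest in gastrocnemius in the GRf/f CORT library. It was at 236 CPM in GRf/f vehicle, 122 CPM in GRf/f CORT, 201 CPM in GRmKO vehicle and 196 CPM in GRmKO CORT. The log2 change was −0.94 [−1.02, −0.88] in GRf/f, just inside 2-fold, and −0.03 [−0.09, 0.03] in GRmKO, which became 0.12 with TMM scaling. In WAT the levels were 171, 67.1, 165 and 143 CPM, and Dusp1 fell in GRf/f (log2 −1.34) but changed by −0.20 in GRmKO. The responses differed between genotypes by 0.92 [0.82, 1.01] in gastrocnemius and by 1.14 [1.03, 1.26] in WAT. In liver Dusp1 was at 68.8, 74.6, 102 and 118 CPM, with log2 changes of 0.12 and 0.20 and both GRmKO libraries above both GRf/f libraries.

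Dusp1 and Sgk1 are also induced by acute stimuli, together with immediate-early genes. The summed CPM of 9 immediate-early genes was 1034, 994, 863 and 1475 in gastrocnemius, 104, 88.6, 89.4 and 223 in liver, and 412, 233, 278 and 561 in WAT, in the order GRf/f vehicle, GRf/f CORT, GRmKO vehicle and GRmKO CORT. The GRmKO CORT library was the highest of the 4 in each tissue. Under CORT, 5 of the 9 were higher in the GRmKO gastrocnemius than in GRf/f (background 4.4%) and 1 was lower, Atf3 (background 5.31%), and 6 of the 9 were higher in WAT (background 1.43%) and none lower. Of the 6 tested in liver, 4 were higher (background 2.44%) and none was lower. The part of these genes in the Dusp1 and Sgk1 values was not tested.

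Ddit4, an inhibitor of mTORC1, fell with CORT in muscle and fat of both genotypes. In gastrocnemius it was at 27.8 CPM in GRf/f vehicle, 7.52 CPM in GRf/f CORT, 41.2 CPM in GRmKO vehicle and 4.72 CPM in GRmKO CORT. Both CORT libraries were below both vehicle libraries. The log2 change was −1.82 [−2.15, −1.62] in GRf/f and −3.00 [−3.45, −2.82] in GRmKO, larger in size than that of 98.6% and 99.9% of genes. In WAT the levels were 63.7, 4.52, 50.6 and 12.6 CPM, with log2 changes of −3.68 [−4.14, −3.51] and −1.96 [−2.21, −1.80]. The larger fall was thus in GRmKO in gastrocnemius and in GRf/f in WAT. In liver Ddit4 was low, at 7.31, 11.5, 8.33 and 7.79 CPM, with a log2 change of 0.62 [0.35, 0.96] in GRf/f and −0.09 [−0.41, 0.23] in GRmKO.

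Errfi1, the EGF receptor inhibitor, was mainly a liver transcript. It was at 856 CPM in GRf/f vehicle, 239 CPM in GRf/f CORT, 807 CPM in GRmKO vehicle and 612 CPM in GRmKO CORT in liver, against 46.1 to 61.5 CPM in gastrocnemius and 45.0 to 91.3 CPM in WAT. The GRf/f CORT liver was the low library. With CORT Errfi1 fell to 0.280 times the vehicle level in the GRf/f liver (log2 −1.84, [−1.88, −1.79]) and was at 0.758 times in GRmKO (log2 −0.40, [−0.43, −0.37]), a difference of responses of 1.44 [1.383, 1.496]. In gastrocnemius its log2 changes were −0.07 [−0.19, 0.05] and 0.12 [−0.01, 0.25], both within counting error, and in WAT they were −0.60 and −0.69.

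**Figure D3:**
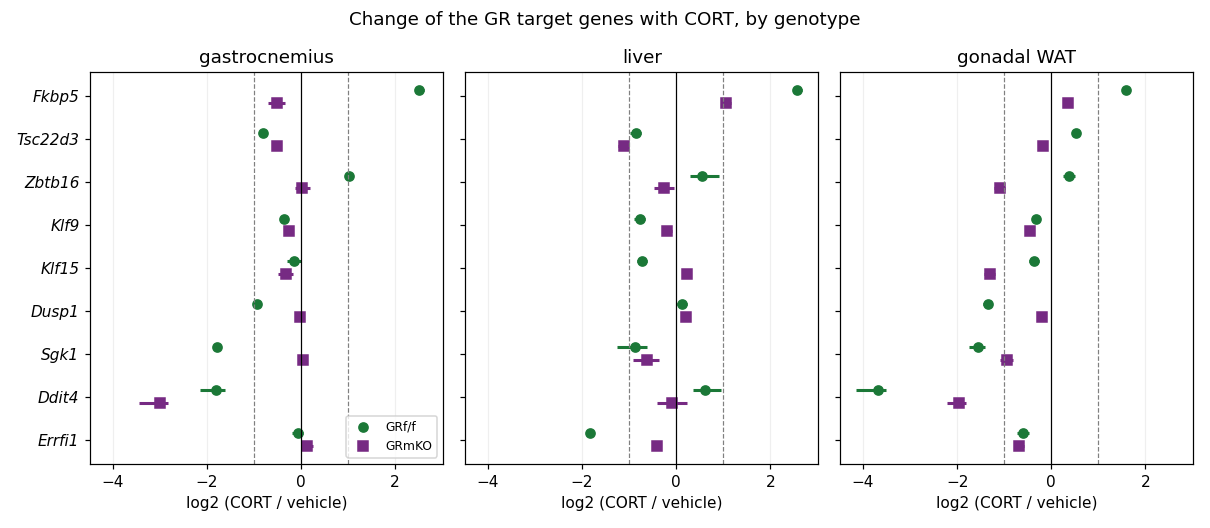
Log2 change of CPM plus 0.5 with CORT (horizontal) for each of the 9 genes (vertical) in GRf/f (circles) and GRmKO (squares), with 95% counting intervals and dashed lines at 2-fold. In gastrocnemius the symbols of Fkbp5 (2.51 and −0.52) and Sgk1 (−1.78 and 0.04) are far apart, and in liver those of Fkbp5 (2.57 and 1.06) and Errfi1 (−1.84 and −0.40).

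**Figure D4:**
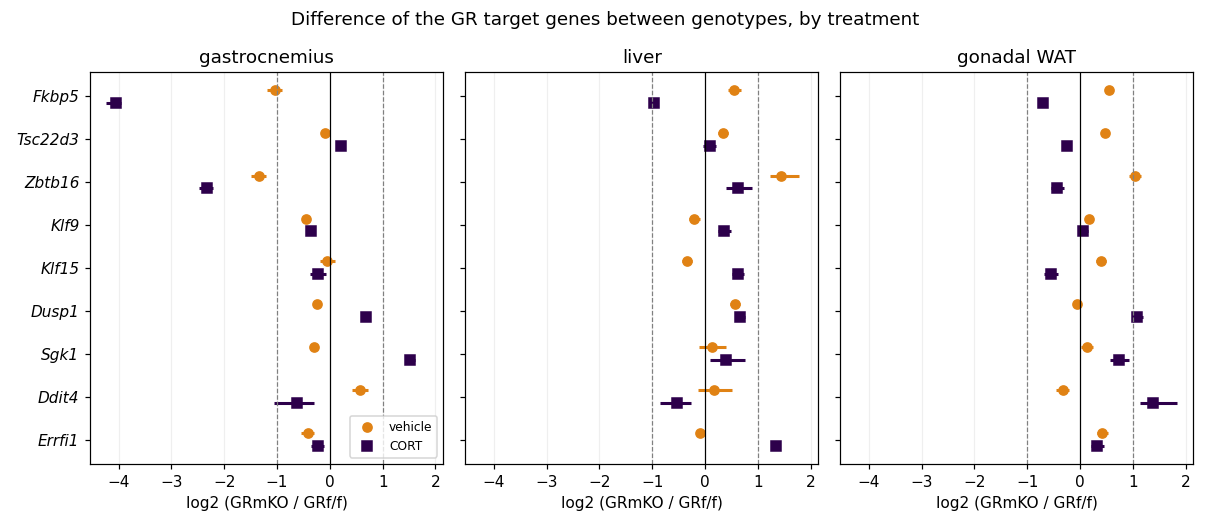
Log2 ratio of GRmKO to GRf/f (horizontal) for each of the 9 genes (vertical) under vehicle (circles) and CORT (squares), with 95% counting intervals and dashed lines at 2-fold. Fkbp5 is left of 0 under CORT in all 3 tissues (−4.06, −0.96 and −0.69), and under vehicle it is right of 0 in liver and WAT (0.55 in both).

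Levels of different genes were compared per kb of the listed transcript. In the GRf/f gastrocnemius under vehicle, Tsc22d3 was the highest of the 9 (140 CPM per kb), followed by Dusp1 (119) and Sgk1 (106). Fkbp5 was sixth (17.5 CPM per kb), within counting error of Klf15 (17.1). Under CORT Fkbp5 was the highest (100 CPM per kb), ahead of Tsc22d3 (79.5) and Dusp1 (61.6). In the GRmKO gastrocnemius under CORT Fkbp5 was second to last (5.88 CPM per kb), within counting error of Zbtb16 (6.14). In liver under vehicle Errfi1 led in GRf/f (281 CPM per kb) and GRmKO (265 CPM per kb), and under CORT it was level with Fkbp5 in GRf/f (78.7 and 80.8 CPM per kb) but not in GRmKO (201 and 41.4 CPM per kb). Tsc22d3 was the highest in all 4 WAT libraries, at 86.1 to 125 CPM per kb. In GRf/f vehicle, however, it was within counting error of Dusp1 (85.8 CPM per kb), and in GRf/f CORT of Fkbp5 (120 CPM per kb).

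A list of 22 other direct GR targets was described in the same way. In the GRf/f gastrocnemius 8 of the 22 rose with CORT (background 3.26%) and 2 fell (background 4.72%), with a median log2 change of 0.59, against −0.08 over all genes. The largest rises were those of Angptl4, a lipase inhibitor (2.06 to 17.3 CPM), Pik3r1, a PI3 kinase subunit (31.9 to 223 CPM), Cdkn1a, the gene of p21 (37.3 to 188 CPM), and Mt2, a metallothionein (14.04 to 56.8 CPM). The 2 that fell were the clock gene Per1 (80.6 to 33.1 CPM) and Cebpd (53.8 to 23.5 CPM). In GRmKO 2 rose, Angptl4 (1.64 to 16.1 CPM) and Pdk4, a brake on glucose oxidation (214 to 970 CPM), and 2 fell (background 1.51% and 5.02%). Under CORT 10 of the 22 were lower in the GRmKO gastrocnemius than in GRf/f (background 5.31%) and 1 was higher, Zfp36 (background 4.4%), with a median log2 ratio of −0.90, against 0.02 over all genes. Already under vehicle 5 of the 22 were lower in GRmKO (background 3.18%) and none was higher (background 4.59%). The median log2 ratio was then −0.25, against 0.07 over all genes.

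In liver, 4 of the 20 tested genes of that list rose and 5 fell in GRf/f (background 5.9% and 5.72%), and 3 rose and 2 fell in GRmKO (background 2.8% and 2.82%). In WAT 5 of 21 rose and 5 fell in GRf/f (background 5.49% and 8.07%), and 4 rose and 4 fell in GRmKO (background 3.47% and 5.63%). Cdkn1a and Mt2 were among those that rose in both genotypes in liver and WAT. In liver, Cdkn1a went from 1.12 to 41.0 CPM in GRf/f and from 4.38 to 10.1 CPM in GRmKO, and Mt2 went from 15.3 to 162 CPM and from 14.7 to 42.8 CPM. As for Fkbp5, the GRf/f liver had the larger change of both.

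Several of the 9 genes, among them Klf9, Klf15 and Tsc22d3, also vary over the day, and the time of tissue collection is not given in the sources used here. The clock output gene Dbp fell with CORT in all 6 comparisons, from 116 to 3.37 CPM in the GRf/f gastrocnemius and from 150 to 71.3 CPM in GRmKO, from 124 to 2.97 CPM and from 74.1 to 31.6 CPM in liver, and from 246 to 8.75 CPM and from 195 to 8.40 CPM in WAT. Of 13 clock genes, 3 fell and 2 rose with CORT in the GRf/f gastrocnemius (background 4.72% and 3.26%) and 1 fell in GRmKO (background 5.02%). In WAT 7 fell in each genotype (background 8.07% in GRf/f and 5.63% in GRmKO), with 3 that rose in GRf/f and 2 in GRmKO. Of the 11 tested in liver, 3 fell and 3 rose in GRf/f (background 5.72% and 5.9%), and 3 fell and none rose in GRmKO (background 2.82%). The part of the clock in the values of the 9 genes was not tested. Of 4 genes of steroid availability, Hsd11b1, whose enzyme regenerates active glucocorticoid, rose with CORT in the WAT of GRf/f (61.4 to 162 CPM) and GRmKO (57.5 to 158 CPM), and no other tested gene of the 4 rose or fell with CORT in any tissue. Of 9 GR coregulator genes, Nrip1 rose in the GRf/f liver, and no other change with CORT reached 2-fold.

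Genes with the most similar pattern were sought among 6731 genes by the distance of log2 levels, centred within each tissue, over the 12 libraries, where a smaller distance is a closer pattern. Nearest to Fkbp5 were Aldh1a1 (distance 1.79), Zcchc2 (1.88) and Hspa4l (1.88). Those of Zbtb16 were Pik3ca (1.36), Foxo1 (1.40) and Sntb1 (1.40), and those of Sgk1 were Irgm2 (0.87), Pkdcc (0.91) and Cebpd (0.93). Nearest to Ddit4 was Tcim (2.02), and nearest to Klf9 was Pbxip1 (0.36). The distance grows with how much a gene itself varies, so it is not comparable between these genes: from its own tissue means Ddit4 lay at 3.91 and Klf9 at 0.87. The 9 genes themselves were left out of the genes compared, and the distances describe these libraries only.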

How the data were processed

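The authors sequenced 100-base paired-end reads and estimated transcript abundance with Salmon (1.2.1) on GENCODE M20 protein-coding transcripts of mm10. The deposited estimated counts, 1 value per gene symbol and library, are length-scaled tximport values made in R (3.5.0), and where a symbol occurred more than once the entry with the larger total was kept. Each entry carries 1 transcript identifier. Whether a value sums all transcripts of a gene was not settled: Per1 is listed at 0 in 2 liver libraries and at 26.3 CPM in another. A level given for a gene is that of its listed entry. Levels per kb use the length of the listed transcript and carry the same limit. Genomic positions are those of GENCODE M21 and RefSeq (GRCm38.p6).

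CPM is the estimated count divided by the library total and multiplied by 1000000. Where a gene was above 0 in each of the 4 libraries from 1 tissue, it was tested for a change of at least 2-fold in CPM plus 0.5. Intervals are Clopper-Pearson for ratios, Wilson for levels and a log-scale approximation for differences of responses, each at 95%. A count of 3 is worth 0.143 to 0.155 CPM. With 1 pooled library per group there is no p-value. TMM factors came from edgeR (4.0.16) and median-of-ratios factors from DESeq2 (1.42.0), which were used for scaling only. Scripts ran in Python (3.11.15) and R (4.3.3) and were checked on simulated data.

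The 9 genes, the other lists and the rule for the genes named (at most the 4 largest changes of a list, and the 3 nearest genes in pattern) were chosen with earlier results of these data known. Per1, Cebpd, Zfp36, Atf3, Nrip1, Cfd and Cyp2e1 were named after their values were seen. The promoter windows were searched in place of a planned search of longer stretches around the start sites.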

Additional observations from a re-analysis of the deposited data

Results flagged for a closer look

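With 1 library per group, none of the following differences was tested. Each is a pair of log2 changes of opposite sign whose counting intervals both leave out 0, which is a rule of description, and pairs within a tissue share libraries.

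In gastrocnemius, the Fkbp5 response to CORT was 2.51 in GRf/f and −0.52 in GRmKO, a difference (GRmKO minus GRf/f) of −3.03 on the log2 scale. The log2 ratio of GRmKO to GRf/f went from negative under vehicle to positive under CORT for Tsc22d3 (CORT minus vehicle, 0.31), Dusp1 (0.91) and Sgk1 (1.82), and from positive to negative for Ddit4 (−1.18).

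In liver, where Nr3c1 was near the GRf/f level, the genotype ratio of Fkbp5 went from 0.55 under vehicle to −0.96 under CORT (difference −1.51), that of Klf9 from −0.21 to 0.37 (0.57) and that of Errfi1 from −0.09 to 1.35 (1.44). The CORT response of Zbtb16 was 0.56 in GRf/f and −0.25 in GRmKO (−0.81), and that of Klf15 was −0.73 and 0.22 (0.95).

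In WAT, the genotype ratio of Fkbp5 went from 0.55 to −0.69 (−1.24), that of Klf15 from 0.39 to −0.54 (−0.93) and that of Ddit4 from −0.33 to 1.39 (1.72). The CORT response of Tsc22d3 was 0.53 in GRf/f and −0.19 in GRmKO (−0.72), and that of Zbtb16 was 0.37 and −1.09 (−1.46).

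Between tissues, the CORT responses in GRf/f differed in sign for Tsc22d3 between WAT and gastrocnemius (1.35) and between WAT and liver (1.39), for Dusp1 between liver and gastrocnemius (1.06) and between WAT and liver (−1.46), and for Ddit4 between liver and gastrocnemius (2.43) and between WAT and liver (−4.29). In GRmKO they differed for Fkbp5 between liver and gastrocnemius (1.58) and between WAT and gastrocnemius (0.87), and for Dusp1 between WAT and liver (−0.41). In all of these the value is the response in the first tissue named minus that in the second. Tissues were compared only where they list the same transcript of a gene, which left out Klf15 in liver.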

How the results depend on the processing

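Of 540 log2 changes of the 9 genes recomputed under other scalings or pseudocounts, 4 changed sign, from values that were at most 0.07 in size with the library totals: Errfi1 in the GRf/f gastrocnemius with CORT (0.02 with TMM and 0.04 with median-of-ratios factors) and Dusp1 in GRmKO (0.12 and 0.11). Another 7 crossed 2-fold. With TMM or median-of-ratios factors the GRmKO liver had 1 gene past 2-fold with CORT, since Fkbp5 was at 0.99 or 1.00, and the livers of the genotypes differed in 2 genes under CORT, since Fkbp5 was at −1.04. Zbtb16 in the GRmKO WAT with CORT was at −0.97 or −0.96. Without the 10 most abundant entries, 0 genes differed between genotypes in WAT under vehicle. At 1.5-fold, the genes past the threshold were 5 between genotypes in gastrocnemius under CORT, 7 with CORT in the GRf/f liver, 5 between liver genotypes under CORT, 5 with CORT in the GRmKO WAT and 4 between WAT genotypes under CORT. The share of all genes past 1.5-fold was not computed, so these counts have no background and are not a result about the 9 genes.

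The number of all genes past 2-fold moved with the pseudocount and the filter. With 0.1 CPM added it was 1672, 1445, 1656 and 2010 in gastrocnemius (CORT in GRf/f, CORT in GRmKO, genotype under vehicle, genotype under CORT), 1184, 670 and 1152 in liver (the last 3 of these) and 1944, 715 and 815 in WAT (the same 3). With 1 CPM added the genotype counts under vehicle and CORT were 183 and 392 in liver and 207 and 239 in WAT. With a mean of at least 1 CPM in place of the filter, the liver genotype count under vehicle was 461. With no filter the counts were 1401 (CORT in GRmKO) and 1621 (genotype under vehicle) in gastrocnemius, 1143, 657 and 982 in liver (CORT in GRmKO and both genotype comparisons), and 708 and 767 in WAT (both genotype comparisons).

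TMM and median-of-ratios factors moved the median of all genes from −0.10 to 0.04 and 0.03 in the GRmKO gastrocnemius with CORT, and from −0.12 to −0.01 and 0.00 in the GRmKO WAT. The share of rises among genes past 2-fold went from 23.2% to 34.9% and 34% there in muscle, from 38.2% to 51.2% and 51.7% in WAT, and from 40.8% to 51.2% with median-of-ratios factors in the GRf/f gastrocnemius. No paired analysis was possible because each group is 1 pooled library, and for the same reason no replicate could be left out. The planned search of longer stretches around the start sites for the response element was not run. A level under 3 counts, 0.143 to 0.155 CPM, could not be told from 0.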
